A study of Homo sapiens with 6 samples.

Results

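The nuclear genes of the mitochondrial respiratory chain were examined in 2 human clear cell renal cell carcinoma lines in which the zinc finger protein ZNF395 had been knocked down. The genes were chosen by their symbols, as the structural subunits of the 4 electron transport complexes and of ATP synthase, and not by any measured value. The symbols gave 76 of the 32357 genes in the count table: 37 of complex I, 4 of complex II, 9 of complex III, 11 of complex IV and 15 of complex V. All 76 passed the filter on low counts, which kept 20144 genes. Members are called by the symbols used in the table, 16 of which have since been renamed (ATP5B, for example, is now ATP5F1B).

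The groups were A-498 with ZNF395 hairpin 3 (shZNF395-3), hairpin 1 (shZNF395-1) or a non-targeting control hairpin (shNTC), and 786-O with the same 3 constructs. Each of the 6 groups was 1 library. Every library, controls included, came from cells that had received a retroviral short hairpin construct and had been selected with puromycin, and the background of both tumour lines is loss of the VHL tumour suppressor. Without repeat cultures, p-values rest on the spread that each model left between these libraries, and in the hairpin comparisons the lines stood in for replicates. CPM denotes counts scaled to library size, after TMM scaling of the libraries, and "called" means an adjusted p under 0.05 in edgeR's quasi-likelihood test with Benjamini-Hochberg adjustment over all 20144 genes.

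The respiratory chain moves electrons from NADH through complex I, or from succinate through complex II, to coenzyme Q, then through complex III and cytochrome c to complex IV, where oxygen is reduced. Complexes I, III and IV pump protons across the inner mitochondrial membrane, and complex V, the ATP synthase, uses their return to make ATP. Complex II is encoded wholly in the nucleus, while each of the others also holds subunits encoded in mitochondrial DNA, so nuclear and mitochondrial products must be assembled together. Clear cell renal carcinoma is known for strong glycolysis and low respiration, tied to the loss of VHL and the resulting activity of hypoxia-inducible factors.

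Library totals ran from 77534125 to 99147218 counts, and the members together took 0.611 to 0.757% of them. ZNF395 had 14.3 CPM with hairpin 3, 14.5 CPM with hairpin 1 and 67.9 CPM with the control in A-498, and 13.5, 24.7 and 96.3 CPM with the same constructs in 786-O. The renal epithelial marker PAX8 had 157 to 256 CPM, and the 8 renal markers together had 2541 to 3479 CPM. The largest parts of that sum were VIM (795 to 2066 CPM) and KRT8 (589 to 1325 CPM). CA9, on the same list, was nearly absent, with 0 to 1 counts in 786-O and 0.40 to 1.68 CPM in A-498. The 2 endothelial markers in the table, CDH5 and VWF, summed to at most 0.07 CPM. The 3 leukocyte markers in the table (PTPRC, CD14 and LYZ) summed to at most 0.91 CPM.

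Members covered a wide range of expression. Summed over libraries, counts ran from 292 for NDUFV2, a core subunit of complex I that binds an iron-sulfur cluster, to 313919 for ATP5B, the catalytic beta subunit of ATP synthase. On a per-length scale, as CPM per kilobase of the principal transcript, the highest mean levels were those of COX4I1 (345 CPM per kb), UQCRH (339 CPM per kb), ATP5B (339 CPM per kb) and NDUFS5 (306 CPM per kb). The lowest were those of NDUFV2 (0.62 CPM per kb), NDUFA9 (0.89 CPM per kb), NDUFA13 (0.94 CPM per kb) and NDUFC2 (2.60 CPM per kb). The place of NDUFA9 rests on an annotated length of 8363 bases. Before division by length it had 7.46 CPM on average, against 0.93 CPM for NDUFA13 with 991 bases. Long annotated lengths also lowered the values of SDHC (13566 bases) and UQCRB (5575 bases). The medians by complex depend on these lengths too. The median member of complex V stood at 110.0 CPM per kb, of complex IV at 79.5, of complex III at 59.8, of complex II at 55.2 and of complex I at 45.0 CPM per kb.

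Several of the lowest values were on genes that share sequence or position with others. The counts of the processed copy NDUFV2P1 came to 86.6% of those of NDUFV2, and in the GENCODE annotation 43 of the 76 members overlap exons of another gene (23 on the same strand and 32 on the opposite strand). Since the strand setting and the treatment of shared reads by the authors are not stated in the sources used, the levels of NDUFV2, NDUFA9, NDUFA13 and NDUFC2 are uncertain. Of 40 pseudogene rows belonging to 26 members, 4 held more than 1% of the member's counts: NDUFV2P1, SDHAP1 (7.65% of SDHA), SDHAP3 (3.29% of SDHA) and COX6A1P2 (2.12% of COX6A1).

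The c ring of ATP synthase, the rotor that protons turn, is made from 1 mature protein encoded by 3 genes, so its sources can be compared directly. Per kilobase, ATP5G3 gave 37.7 to 43.0% of their summed level, ATP5G2 29.4 to 38.5% and ATP5G1 21.2 to 28.3% over the 6 libraries. The order ATP5G3, ATP5G2, ATP5G1 held in each library, and none of the 3 was called in any comparison. ATP5G1 had 84.7, 103 and 108 CPM with hairpin 3, hairpin 1 and the control in A-498, against 71.3, 89.0 and 72.0 CPM with the same constructs in 786-O. ATP5G1 was highest in the A-498 control and lowest in 786-O with hairpin 3, and the lines overlapped, since A-498 with hairpin 3 lay below 786-O with hairpin 1.

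Sequences upstream of the genes are shown for 4 members called with hairpin 3. They are examples of members that fell (COX8A, NDUFA8 and ATP5C1) and the member that rose (COX7A2L). NDUFB6 and NDUFB3 also fell, hold neither of the motifs marked below, and are not shown, so the examples that fell are not typical in their motifs. Each is 160 bases of the RefSeq promoter table (GRCh38.p14), from 140 before the annotated start to 20 from it, on the strand of the gene. Capitals mark the NRF1 motif, a palindrome seen in NDUFA8 and ATP5C1, or the ETS motif (CCGGAAG, written CTTCCGG where it lies on the other strand), and a stretch without capitals holds neither. The motifs searched do not overlap in these windows. The windows are those of COX8A (chr11:63974480-63974639, plus strand), NDUFA8 (chr9:122159760-122159919, minus strand), ATP5C1 (chr10:7788037-7788196, plus strand) and COX7A2L (chr2:42361198-42361357, minus strand).
COX8A: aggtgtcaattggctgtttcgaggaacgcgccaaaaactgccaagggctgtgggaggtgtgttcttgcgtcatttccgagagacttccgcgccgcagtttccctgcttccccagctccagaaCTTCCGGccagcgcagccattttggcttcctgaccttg
NDUFA8: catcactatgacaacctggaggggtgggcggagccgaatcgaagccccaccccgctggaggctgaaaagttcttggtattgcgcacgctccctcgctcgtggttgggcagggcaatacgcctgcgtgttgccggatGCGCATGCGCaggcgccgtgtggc
ATP5C1: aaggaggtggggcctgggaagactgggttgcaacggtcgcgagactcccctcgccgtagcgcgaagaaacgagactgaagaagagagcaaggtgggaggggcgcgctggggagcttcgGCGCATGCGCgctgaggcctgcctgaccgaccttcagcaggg
COX7A2L: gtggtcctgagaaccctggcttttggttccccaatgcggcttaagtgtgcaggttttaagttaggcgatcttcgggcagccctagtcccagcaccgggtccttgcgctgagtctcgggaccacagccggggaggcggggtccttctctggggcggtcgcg

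NRF1 and the ETS factor GABP are known activators of respiratory chain genes, which is why their motifs were searched. Over the 300-base windows of the 63 members matched to the table, the ETS motif was present on either strand in 19 members (30.2%), against 2913 of 27305 genes (10.7%). The NRF1 motif was present in 4 members (6.35%), against 371 genes (1.36%). The letters GCCGGCG, a motif known for ZNF395 under its older name HDBP2, were present in 5 members (7.94%), against 3003 genes (11%). A match is a description of the letters only. Of the 6 called members with an upstream sequence, COX8A held the ETS letters, NDUFA8 and ATP5C1 the NRF1 letters, and NDUFB6, NDUFB3 and COX7A2L neither.

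Hairpin 3 against the control asked which members moved with the hairpin that called the most genes. With hairpin 3, 6 members fell and 1 rose, and the members that fell came from complexes I, IV and V. The 6 that fell make up 7.89% of the members, beside 4.16% of all genes tested called lower, and the 1 that rose makes up 1.32%, beside 2.55% called higher. At an unadjusted p under 0.05 there were 15 members (19.7%), beside 25.8% of all genes. The median log2 fold change of the members was -0.05, beside -0.01 for all genes.

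In complex IV, cytochrome c oxidase, COX8A moved most; it encodes a small nuclear subunit of the enzyme. COX8A had 10.1 CPM with hairpin 3, 20.7 CPM with hairpin 1 and 20.5 CPM with the control in A-498, and 28.0 CPM with hairpin 3, 49.2 CPM with hairpin 1 and 49.9 CPM with the control in 786-O. The hairpin 3 library was the lowest of its line in both lines, and the other 2 libraries of each line were close together. Its log2 fold change was -0.93 (SE 0.13, adjusted p = 0.0168). In the annotation COX8A overlaps exons of AP000721.1 on the same strand.

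COX7A2L, also known as SCAF1, joins complexes III and IV into supercomplexes and was the only member that rose with hairpin 3. It had 134 CPM with hairpin 3, 109.5 CPM with hairpin 1 and 94.2 CPM with the control in A-498, and 159.8 CPM with hairpin 3, 127 CPM with hairpin 1 and 110.3 CPM with the control in 786-O. Hairpin 3 gave the highest value of each line, hairpin 1 the next and the control the lowest. The log2 fold change with hairpin 3 was 0.52 (SE 0.11, adjusted p = 0.0458). Its close relative COX7A2, the ubiquitous complex IV subunit, differed by -0.41 on the log2 scale (SE 0.12, adjusted p = 0.0858), which did not pass. COX7A2 had 48.6, 63.4 and 65.0 CPM with hairpin 3, hairpin 1 and the control in A-498, against 59.5, 86.3 and 78.6 CPM with the same constructs in 786-O, so that hairpin 3 was the lowest in both lines.

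In complex I, NADH dehydrogenase, the 3 members called were all accessory subunits, which surround the catalytic core. NDUFA8 had 20.9 CPM with hairpin 3, 48.0 CPM with hairpin 1 and 51.1 CPM with the control in A-498, and 31.8 CPM with hairpin 3, 52.0 CPM with hairpin 1 and 52.5 CPM with the control in 786-O, and its log2 fold change was -1.0 (SE 0.17, adjusted p = 0.0236). NDUFB6, of the membrane arm, had 24.8 CPM with hairpin 3, 50.3 CPM with hairpin 1 and 48.7 CPM with the control in A-498, and 24.4 CPM with hairpin 3, 40.0 CPM with hairpin 1 and 38.8 CPM with the control in 786-O. The values of NDUFB6 with hairpin 3 differed little between the lines, and its log2 fold change was -0.82 (SE 0.14, adjusted p = 0.0235). NDUFB3, also of the membrane arm, had 44.2 CPM with hairpin 3, 72.6 CPM with hairpin 1 and 78.0 CPM with the control in A-498, and 52.7 CPM with hairpin 3, 88.5 CPM with hairpin 1 and 72.5 CPM with the control in 786-O. Its log2 fold change was -0.64 (SE 0.14, adjusted p = 0.0443), and hairpin 1 lay above the control in 786-O and below it in A-498. On the opposite strand NDUFB6 overlaps exons of SMIM27, and NDUFB3 overlaps exons of FAM126B.

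Of the 7 core subunits of complex I among the members, none was called, and their median log2 fold change with hairpin 3 was -0.06. NDUFV2 had the highest positive value of any member, 0.85 (SE 0.34, adjusted p = 0.176), on 292 counts in all. Of the 30 accessory subunits, 3 fell and none rose, with a median log2 fold change of 0.00. Across complex I, 28 of the 37 members lay within 0.25 of 0 on the log2 scale.

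In complex V, ATP5C1 encodes the gamma subunit, the central stalk that turns inside the catalytic head, and ATP5B encodes the beta subunit, which holds the catalytic sites. ATP5C1 had 108 CPM with hairpin 3, 188 CPM with hairpin 1 and 217 CPM with the control in A-498, and 178 CPM with hairpin 3, 256 CPM with hairpin 1 and 268 CPM with the control in 786-O, and its log2 fold change was -0.80 (SE 0.14, adjusted p = 0.0278). ATP5B had 406 CPM with hairpin 3, 617 CPM with hairpin 1 and 629 CPM with the control in A-498, and 527 CPM with hairpin 3, 798 CPM with hairpin 1 and 759 CPM with the control in 786-O, and its log2 fold change was -0.58 (SE 0.12, adjusted p = 0.0407). In each line the hairpin 3 library was the lowest for both genes. ATP5A1, the alpha subunit that alternates with beta in the head, differed by -0.25 on the log2 scale (SE 0.12, adjusted p = 0.236), which did not pass.

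**Figure D1:**
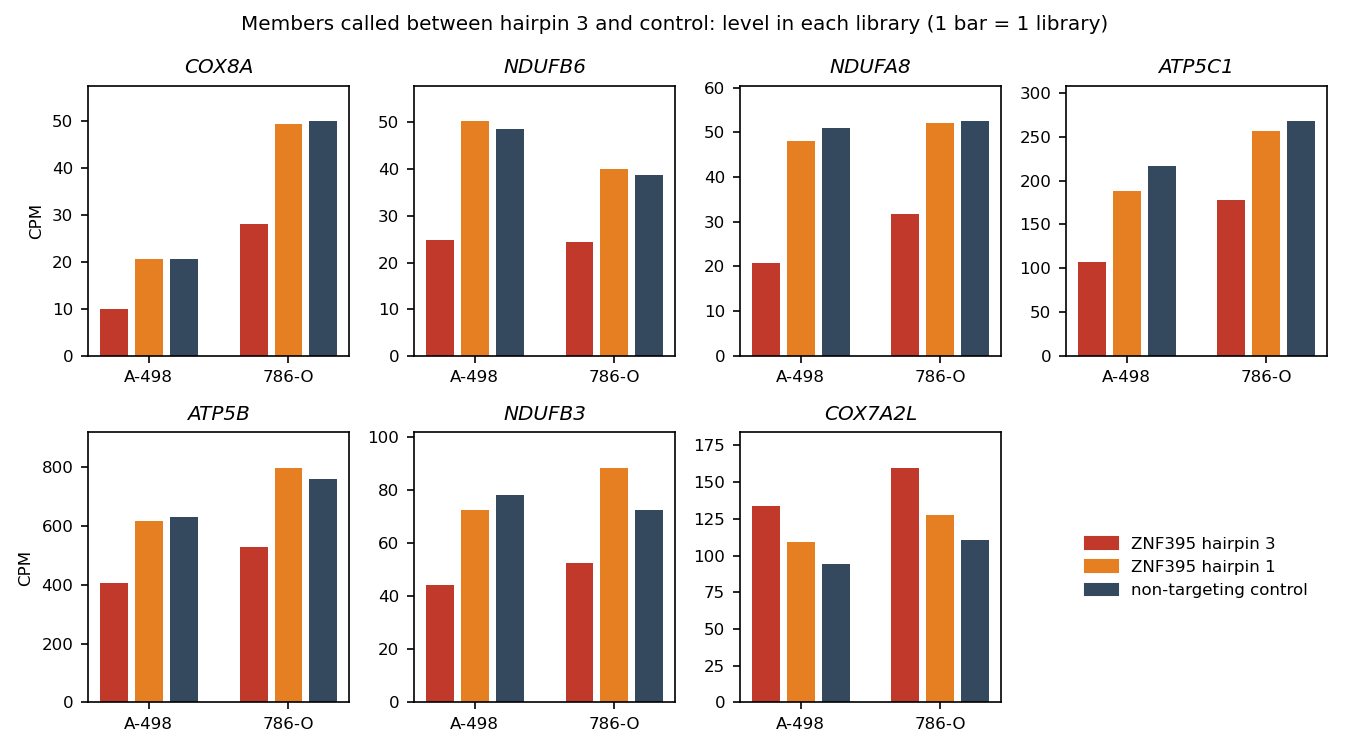
Level of the 7 members called between hairpin 3 and the control, in CPM, with 1 bar per library and the lines side by side. In both lines the hairpin 3 bar is the lowest for COX8A, NDUFB6, NDUFA8, ATP5C1, ATP5B and NDUFB3 and the highest for COX7A2L.

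No member of complexes II or III was called with hairpin 3. The closest was UQCRC2, the core 2 subunit of complex III (log2 fold change -0.51, SE 0.13, adjusted p = 0.0601). UQCRC2 had 128, 168 and 179 CPM with hairpin 3, hairpin 1 and the control in A-498, against 108, 169.8 and 159 CPM with the same constructs in 786-O. The hairpin 3 library was again the lowest of each line. No member was called when either control library was left out, and 4 were called without 786-O hairpin 1, all of them lower. Over all genes the calls also became fewer, with 87 higher and 148 lower of 21237 without the 786-O control, 37 higher and 84 lower of 21138 without that of A-498, and 354 higher and 528 lower of 19916 without 786-O hairpin 1.

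Hairpin 3 against hairpin 1 sets the reagents against each other. The controls are not a side of this contrast, but they enter the filter, the scaling, the line term and the residual spread. Here 8 members fell and none rose. They make up 10.5% of the members, beside 5.4% of all genes tested called lower and 4.09% called higher. They were the 6 members that fell with hairpin 3 against the control, together with COX5A and UQCRC2. This comparison and the one against the control share the hairpin 3 libraries. COX8A differed by -0.92 (SE 0.13, adjusted p = 0.0140), NDUFA8 by -0.95 (SE 0.17, adjusted p = 0.0231) and NDUFB6 by -0.86 (SE 0.14, adjusted p = 0.0177) on the log2 scale. For NDUFB3 the difference was -0.73, for ATP5C1 -0.66, for ATP5B -0.60 and for UQCRC2 -0.52 on the same scale, the last at an adjusted p of 0.0492.

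COX5A, a complex IV subunit on the matrix side, stood apart from these because it lay on opposite sides of the control with the 2 hairpins. It had 49.6 CPM with hairpin 3, 75.2 CPM with hairpin 1 and 59.97 CPM with the control in A-498, and 68.6 CPM with hairpin 3, 97.1 CPM with hairpin 1 and 87.5 CPM with the control in 786-O. Hairpin 3 was the lowest and hairpin 1 the highest in each line. The difference of hairpin 3 from hairpin 1 was -0.55 on the log2 scale (SE 0.12, adjusted p = 0.0363), and neither hairpin differed from the control at the threshold, hairpin 3 lying at -0.31 (adjusted p = 0.153) and hairpin 1 at 0.24 (adjusted p = 0.551). COX7A2L differed between the hairpins by 0.31 (SE 0.11, adjusted p = 0.139), which did not pass. Without 786-O hairpin 1 no member was called between the hairpins, 2 were called when A-498 hairpin 1 was left out, 4 when the control of 786-O was, and 5 when that of A-498 was. Over all genes there were then 106 higher and 143 lower of 19916 without 786-O hairpin 1, 290 higher and 445 lower of 19745 without A-498 hairpin 1, 491 higher and 724 lower of 21237 without the 786-O control, and 478 higher and 799 lower of 21138 without that of A-498, beside 823 higher and 1087 lower of 20144 with all libraries.

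Hairpin 1 against the control called no member, beside 0.109% of all genes called lower and 0.0397% called higher. At an unadjusted p under 0.05 there were 2 members (2.63%), beside 10.5% of all genes, and 74 of the 76 members lay within 0.25 of 0 on the log2 scale. The median log2 fold change of the members was 0.00. Both members with p under 0.05 had negative values, SDHA and NDUFA11.

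SDHA encodes the flavoprotein of complex II, the catalytic subunit that oxidises succinate. It had 136 CPM with hairpin 3, 102 CPM with hairpin 1 and 169 CPM with the control in A-498, and 219 CPM with hairpin 3, 209 CPM with hairpin 1 and 284 CPM with the control in 786-O. In both lines each knockdown library lay below the control, and with hairpin 1 the level in A-498 was the lowest of all libraries. The log2 fold change with hairpin 1 was -0.58 (SE 0.14, adjusted p = 0.217), and DESeq2 called it at an adjusted p of 0.0209. Also called, at adjusted p of 0.0403 to 0.0466, was SDHA without the low-count filter or without either of the hairpin 3 libraries. These settings also called more genes in general. Over all genes with hairpin 1, the main fit called 8 higher and 22 lower of 20144. DESeq2 called 219 higher and 247 lower of 20144, and the fit without the filter 255 higher and 223 lower of 32357. Leaving out either hairpin 3 library raised the calls over all genes as well. With hairpin 3 the log2 fold change of SDHA was -0.35 (SE 0.14, adjusted p = 0.168). Of the other complex II genes, SDHB, the iron-sulfur subunit, had log2 ratios of 0.18 in A-498 and 0.10 in 786-O with hairpin 1, and the membrane anchors had -0.19 (SDHC) and 0.05 (SDHD) in A-498 and 0.05 (SDHC) and 0.02 (SDHD) in 786-O. SDHA has near-identical copies elsewhere in the genome, of which SDHAP1 and SDHAP3 have rows in the table, so its counts may be split.

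NDUFA11, an accessory subunit of the complex I membrane arm, had 4.72, 3.98 and 5.36 CPM with hairpin 3, hairpin 1 and the control in A-498, against 6.64, 5.21 and 7.22 CPM with the same constructs in 786-O. Hairpin 1 was the lowest and the control the highest in both lines, and the log2 fold change with hairpin 1 was -0.45 (SE 0.18, adjusted p = 0.446). The next smallest p-values with hairpin 1 were those of COX5A, NDUFA7 (0.24, an accessory subunit of complex I) and COX7A2L (0.21), all positive and none called.

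With both hairpins pooled, the knockdown libraries against the controls gave no called member. No gene at all was called (0% in each direction), with 5.03% at an unadjusted p under 0.05. ZNF395 itself, at -2.29 on the log2 scale, was not called in this model, though each hairpin alone called it lower. The lack of calls here therefore does not show that no member changed. Among the members, 1 (1.32%) had an unadjusted p under 0.05, SDHA, whose log2 fold change was -0.46 (SE 0.16, adjusted p = 0.939). DESeq2 and limma-voom also called no member. Over all genes DESeq2 called 51 higher and 41 lower, and limma-voom 0 higher and 1 lower. In the authors' deposited table none of the 76 members has an adjusted p under 0.05, and SDHA again has the smallest p. That table gives control over knockdown, and its log2 fold change for SDHA is 0.41 (SE 0.18, adjusted p 0.655).

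Each knockdown library was also set against the control of its own line as a log2 ratio. Ratios within a line share that control, so signs that repeat there are partly tied. Hairpin 3 gave a median ratio over the members of -0.07 in A-498 and -0.04 in 786-O, and hairpin 1 gave -0.06 in A-498 and 0.04 in 786-O. Members above 0 numbered 33 of 76 for hairpin 3 in A-498, 30 for hairpin 3 in 786-O, 23 for hairpin 1 in A-498 and 45 for hairpin 1 in 786-O. All 4 ratios were negative for 15 members (19.7%), beside 14.6% of 11027 genes with at least 5 CPM on average. All 4 were positive for 6 members (7.89%), beside 15% of those genes. The cut at 5 CPM was not applied to the members. NDUFA13, among the 15, had 0.93 CPM on average, and NDUFV2, with mixed signs, had 0.58 CPM.

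**Figure D2:**
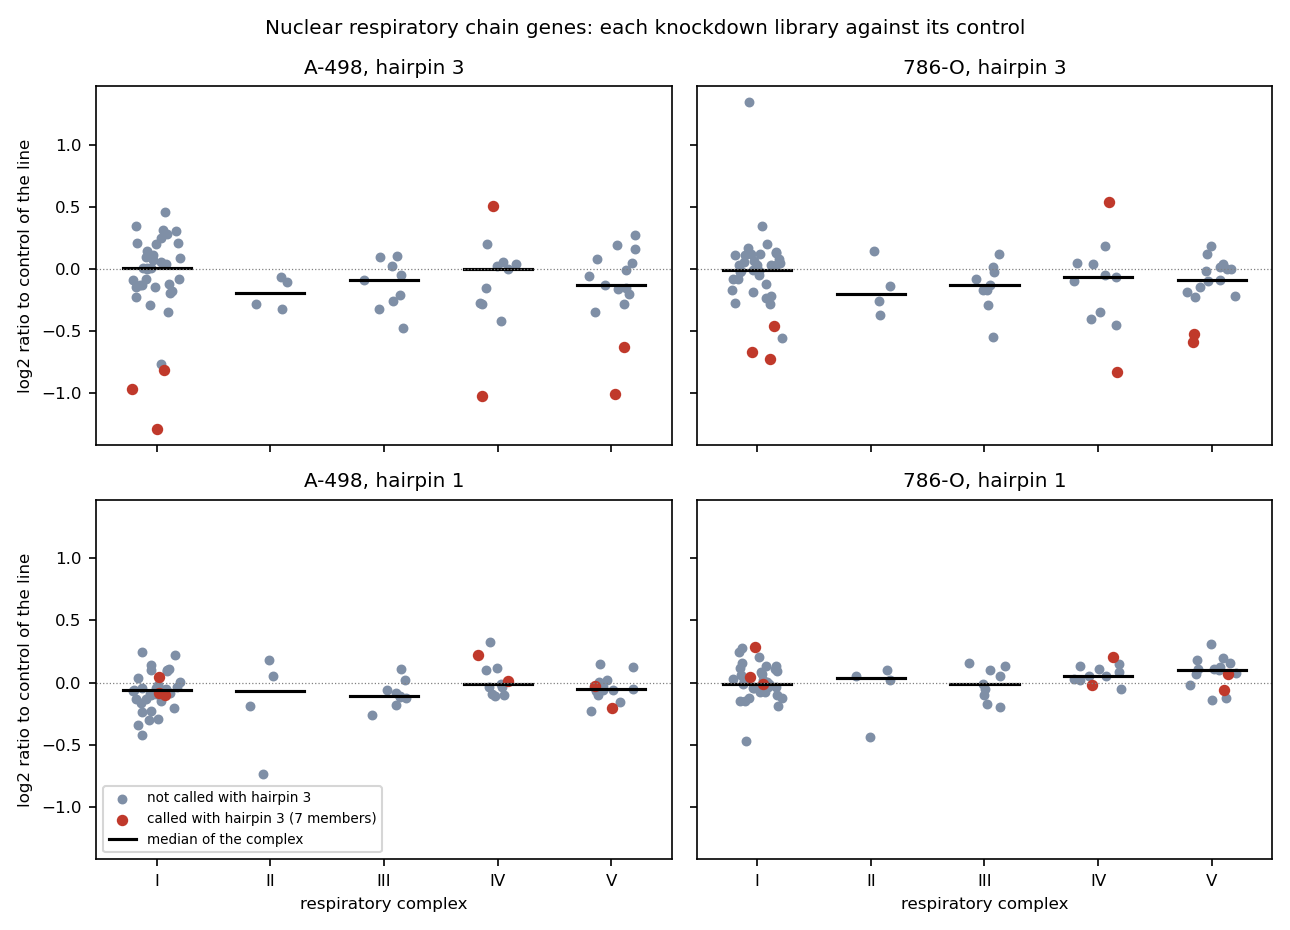
Log2 ratio of each member to the control of the same line, by respiratory complex, with 1 panel per knockdown library, 1 point per member and a line at the median of each complex. The 7 members called with hairpin 3, in red, lie at 0.51 or above (COX7A2L) or at -0.46 or below with hairpin 3 in both lines. With hairpin 1 they lie between -0.21 and 0.29, with NDUFB3 in 786-O at 0.29 and COX7A2L at 0.22 in A-498 and 0.21 in 786-O. The point at 1.34 in 786-O with hairpin 3 is NDUFV2, which has 292 counts in all.

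Of the members with 1 sign in all 4 ratios, the 6 whose smallest ratio was largest in size were SDHA, COX7A2L, ATP5A1, NDUFC2, NDUFA11 and NDUFS6. The ratio of SDHA was -0.32 for hairpin 3 and -0.73 for hairpin 1 in A-498, and -0.37 for hairpin 3 and -0.44 for hairpin 1 in 786-O. That of COX7A2L was 0.51 for hairpin 3 and 0.22 for hairpin 1 in A-498, and 0.53 for hairpin 3 and 0.21 for hairpin 1 in 786-O, so the values of each hairpin were nearly the same in both lines. ATP5A1 lay between -0.29 and -0.14, NDUFC2 between -0.77 and -0.13 and NDUFA11 between -0.47 and -0.12. NDUFS6, an accessory subunit of the complex I NADH module, was the other member above 0, at 0.11 to 0.35.

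Levels were also summed by complex. The 15 members of complex V summed to 1760.2 CPM with hairpin 3, 2083 CPM with hairpin 1 and 2179 CPM with the control in A-498, and to 2295 CPM with hairpin 3, 2780.2 CPM with hairpin 1 and 2695 CPM with the control in 786-O. Complex II summed to 319 CPM with hairpin 3, 307 CPM with hairpin 1 and 377 CPM with the control in A-498, and to 443 CPM with hairpin 3, 453 CPM with hairpin 1 and 517 CPM with the control in 786-O. Complex I summed to 1819 CPM with hairpin 3, 1853 CPM with hairpin 1 and 1962 CPM with the control in A-498, and to 2072 CPM with hairpin 3, 2131 CPM with hairpin 1 and 2119.6 CPM with the control in 786-O. Complex III summed to 898 CPM with hairpin 3, 919 CPM with hairpin 1 and 969.9 CPM with the control in A-498, and to 1091 CPM with hairpin 3, 1194 CPM with hairpin 1 and 1164 CPM with the control in 786-O. Complex IV summed to 1048 CPM with hairpin 3, 1106 CPM with hairpin 1 and 1077.5 CPM with the control in A-498, and to 1086 CPM with hairpin 3, 1196 CPM with hairpin 1 and 1136 CPM with the control in 786-O. With hairpin 3 all 5 sums lay below the control in both lines, while with hairpin 1 the sum of complex IV lay above it in both. Sums weigh abundant members most. Median log2 ratios with hairpin 3 were 0.00 in A-498 and -0.01 in 786-O for complex I, and 0.00 and -0.07 for complex IV. Members above 0 numbered 19 of 37 in complex I and 6 of 11 in complex IV in A-498, and 18 and 4 in 786-O. For complexes II, III and V the medians were -0.20, -0.09 and -0.13 in A-498 and -0.20, -0.13 and -0.09 in 786-O. Neither sums nor medians were tested.

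The knockdown effect in A-498 minus that in 786-O was called for no member and for no gene (0% in each direction, with 0.789% at an unadjusted p under 0.05). No member had an unadjusted p under 0.05, and the largest difference was that of NDUFV2 (-0.86, SE 0.92, adjusted p = 0.999976). The next in size were NDUFB3 (-0.38, SE 0.62), ATP5G1 (-0.36, SE 0.41) and NDUFS5, an accessory subunit of complex I (-0.31, SE 0.34). A model of 4 means leaves 2 residual degrees of freedom, and its standard errors of 0.34 or more for these members set the size that could be seen.

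The line comparison, A-498 against 786-O, gave more member calls than any comparison of constructs. In A-498, 27 members were lower and 5 were higher. The lower ones make up 35.5% of the members, beside 21.4% of all genes tested, and the higher ones make up 6.58%, beside 25.7%. The median log2 fold change of the members was -0.33, beside 0.02 for all genes, and 58 of the 76 were below 0. At an unadjusted p under 0.05 there were 40 members (52.6%), beside 54.9% of all genes. With library totals in place of TMM scaling the split was 20 lower and 7 higher, beside 3798 lower and 5551 higher over all genes. With the construct in the model in place of knockdown status it was 42 lower and 11 higher, beside 5989 and 6471 of all genes. With either control library left out 9 members were called, and without 786-O hairpin 1 there were 19. Over all genes 5182 were higher and 4319 lower with all libraries, 3448 and 2133 without the 786-O control, 3380 and 2227 without that of A-498, and 4362 and 3495 without 786-O hairpin 1.

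The direction was the same with each construct for most members: 51 were lower in A-498 in all 3 constructs, 15 were higher and 10 were mixed. In bulk RNA a lower share of transcripts and fewer transcripts per cell cannot be told apart. Since each line is 1 line, the comparison describes these lines and not a class of tumour.

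In complex III, 6 of the 9 members were lower and 1 was higher in A-498. UQCRH, the hinge protein that helps bind cytochrome c1, had 151 CPM with hairpin 3, 144 CPM with hairpin 1 and 156 CPM with the control in A-498, and 264 CPM with hairpin 3, 271 CPM with hairpin 1 and 242 CPM with the control in 786-O, and its log2 fold change was -0.78 (SE 0.13, adjusted p = 0.00337). UQCR10, UQCRQ, UQCR11, UQCRC1 and CYC1 were lower by smaller amounts, the last, which encodes cytochrome c1, at -0.37 (SE 0.12, adjusted p = 0.0417). UQCRFS1, the Rieske iron-sulfur subunit that makes the first transfer from coenzyme Q, went the other way. It had 104 CPM with hairpin 3, 103 CPM with hairpin 1 and 111 CPM with the control in A-498, and 62.2 CPM with hairpin 3, 60.5 CPM with hairpin 1 and 68.1 CPM with the control in 786-O, and its log2 fold change was 0.74 (SE 0.12, adjusted p = 0.00343), and the lines did not overlap.

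In complex II both catalytic subunits were lower in A-498. The log2 fold change of SDHA was -0.82 (SE 0.15, adjusted p = 0.00585) and that of SDHB was -0.74 (SE 0.14, adjusted p = 0.00509). The copy SDHAP3 had 625 to 1415 counts in A-498 against 34 to 56 in 786-O, and SDHAP1 had 803 to 1254 against 1169 to 1395. SDHA itself had 8159 to 16884 counts in A-498. Reads split with these copies may enter the line difference of SDHA, which was not tested. SDHB had 51.8, 61.6 and 54.3 CPM with hairpin 3, hairpin 1 and the control in A-498, against 97.4, 94.5 and 88.2 CPM with the same constructs in 786-O. The anchors were not called, SDHC at 0.32 (SE 0.14) and SDHD at -0.33 (SE 0.13).

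Complex I had 12 members lower and 3 higher. The most significant was NDUFS6, with 47.8, 40.6 and 37.5 CPM with hairpin 3, hairpin 1 and the control in A-498, against 92.5, 91.7 and 84.9 CPM with the same constructs in 786-O; its log2 fold change was -1.10 (SE 0.14, adjusted p = 0.00110). NDUFC2 (-1.14, SE 0.21), NDUFA9 (-0.94, SE 0.17), NDUFB11 (-0.70, SE 0.13) and NDUFB9 (-0.62, SE 0.13) followed, all accessory subunits, and NDUFC2 and NDUFA9 are among the members with uncertain levels. Those higher in A-498 were NDUFA3, NDUFS4 and NDUFV3. NDUFA3 had 36.0 CPM with hairpin 3, 30.1 CPM with hairpin 1 and 31.5 CPM with the control in A-498, and 14.2 CPM with hairpin 3, 13.2 CPM with hairpin 1 and 14.7 CPM with the control in 786-O, its log2 fold change was 1.22 (SE 0.15, adjusted p = 0.00110), and the values of the lines did not overlap. NDUFA3 overlaps exons of TFPT on the opposite strand. NDUFS4, an accessory subunit of the NADH module, was at 0.74 (SE 0.15, adjusted p = 0.00758).

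In complex IV, 2 of 11 members were lower in A-498, COX8A (-1.31, SE 0.32, adjusted p = 0.0157) and COX6C (-0.52, SE 0.13, adjusted p = 0.0144), and COX7C was higher (0.79, SE 0.18, adjusted p = 0.0121). COX4I1, the complex IV member with the most counts among these nuclear genes, stood at -0.01 on the log2 scale (SE 0.13). In complex V, 5 of 15 members were lower and none higher. ATP5E, the small epsilon subunit of the central stalk, had 141 CPM with hairpin 3, 119.8 CPM with hairpin 1 and 133 CPM with the control in A-498, and 286 CPM with hairpin 3, 298 CPM with hairpin 1 and 263 CPM with the control in 786-O, and its log2 fold change was -1.10 (SE 0.14, adjusted p = 0.00115). NDUFA4, listed with complex I by its symbol and now known as a complex IV subunit, was not called (0.24, SE 0.13).

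**Figure D3:**
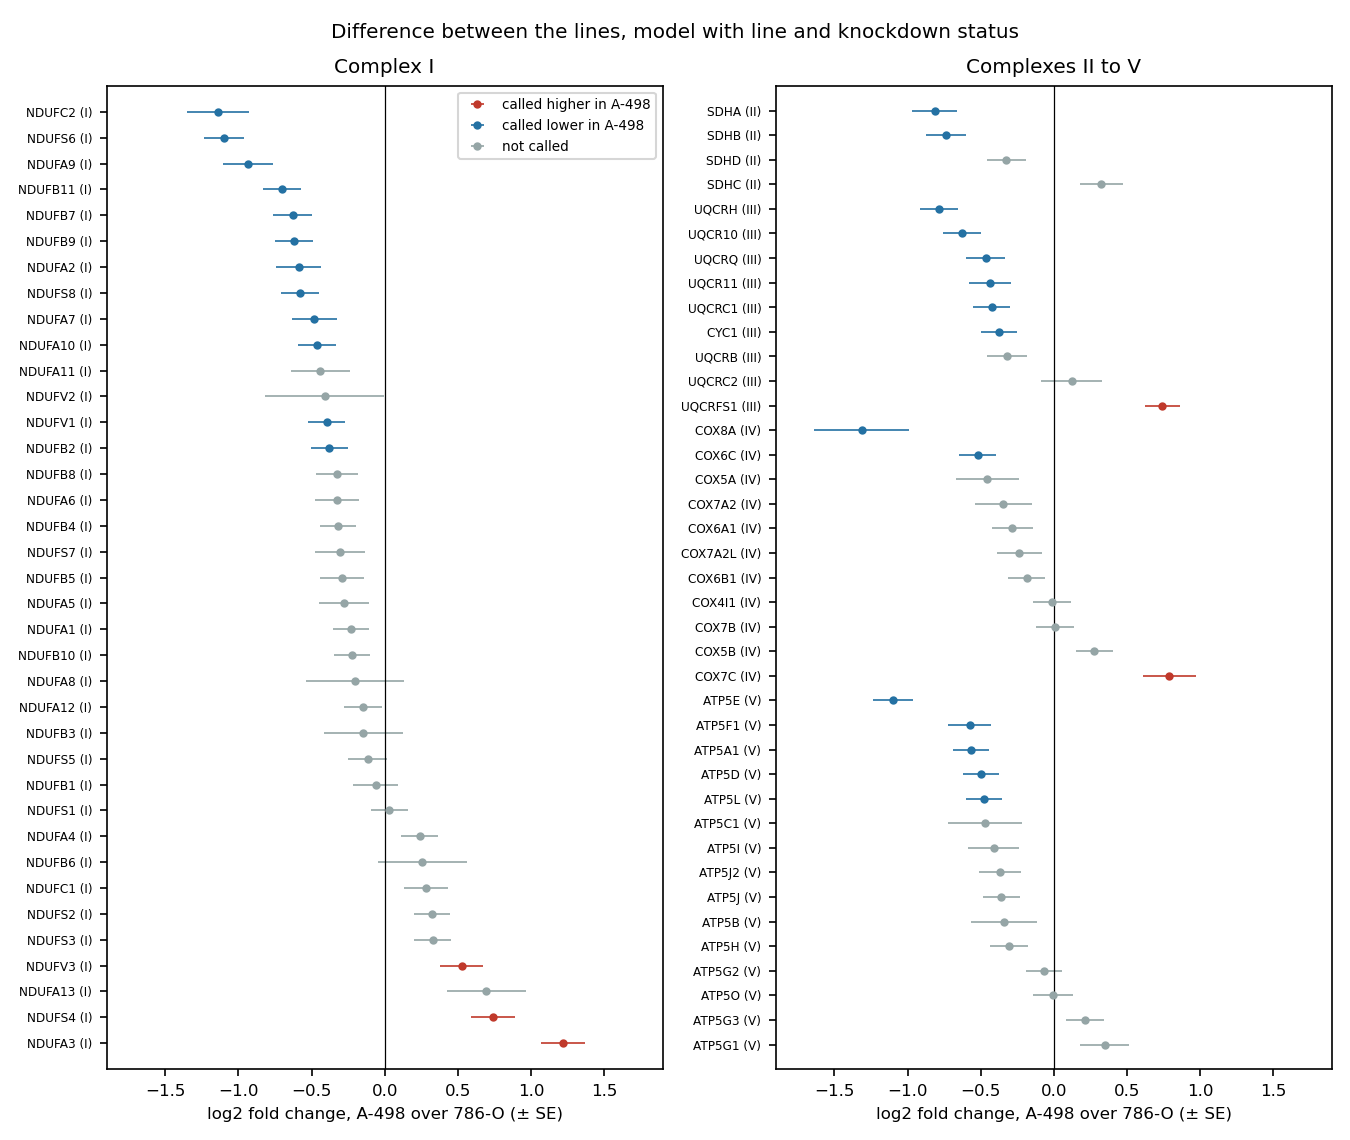
Log2 fold change of each member in A-498 over 786-O, with bars of 1 SE on each side, grouped by complex and ordered by size, from the model with line and knockdown status. The 27 members called lower, in blue, outnumber the 5 called higher, in red, and COX8A at -1.31 and NDUFA3 at 1.22 are the extremes.

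Members were then set beside their neighbours in the genome, taken as tested genes outside the members within 5 Mb by GENCODE position. Of the 20144 genes tested, 15561 genes outside the members could be placed by their symbol. In A-498 against 786-O the log2 fold change of a member and the median of its neighbours had a Pearson r of 0.66 and a Spearman rho of 0.67 over 76 members. The sign was shared by 61 of 76 members (80.3%), beside 66.4% of 10232 placed genes, over which r was 0.19 and rho 0.39. Those 10232 genes lie outside the members and have at least 5 CPM on average and at least 10 neighbours. The cut on CPM was not applied to the members. UQCRFS1 at 0.74 had a neighbour median of 0.63, NDUFS4 at 0.74 had 0.96 and COX7C at 0.79 had 0.41. SDHB at -0.74 had -0.58, ATP5E at -1.10 had -0.44 and COX8A at -1.31 had -0.40. Other called members lay far from their neighbours: SDHA at -0.82 had -0.06, NDUFA9 at -0.94 had -0.03 and NDUFA3 at 1.22 had 0.20. NDUFB9 at -0.62 had 0.14, so its sign was opposite to that of its neighbours. Neighbourhoods overlap and share libraries, so the points are not independent and no p is given, and the copy number of these lines was not measured here. With hairpin 3 against the control, r was -0.12 and rho -0.14, beside 0.07 and 0.05 over the same 10232 genes. The sign of their neighbours was shared by 36 of 76 members (47.4%), beside 51.1% of those genes.

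**Figure D4:**
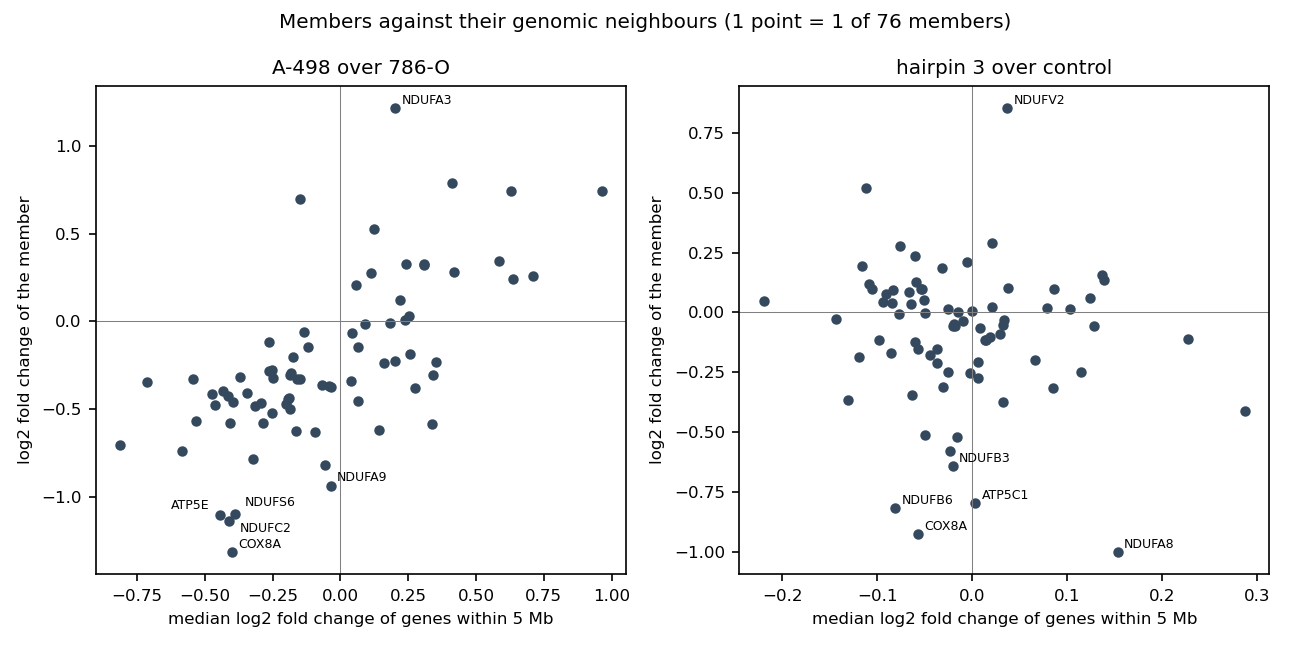
Log2 fold change of each member, on the vertical axis, against the median log2 fold change of the tested genes within 5 Mb of it, on the horizontal axis, for A-498 over 786-O on the left and hairpin 3 over control on the right, with 1 point per member. Members are left out of the neighbours. On the left the points run from lower left to upper right (r 0.66), and on the right they do not (r -0.12).

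Other genes of the pathway were counted from fixed lists. Of 48 assembly factors, which build the complexes without remaining in them, 1 rose and 1 fell with hairpin 3 against the control. Over all genes 2.55% were called higher and 4.16% lower in that comparison. TTC19, which clears fragments of the Rieske protein from complex III, had 27.2 CPM with hairpin 3, 47.2 CPM with hairpin 1 and 52.5 CPM with the control in A-498, and 27.0 CPM with hairpin 3, 53.5 CPM with hairpin 1 and 50.8 CPM with the control in 786-O, and its log2 fold change was -0.93 (SE 0.13, adjusted p = 0.0156). NDUFAF2, a complex I assembly factor, had 29.7, 20.1 and 18.4 CPM with hairpin 3, hairpin 1 and the control in A-498, against 27.2, 19.7 and 16.2 CPM with the same constructs in 786-O, and its log2 fold change was 0.72 (SE 0.13, adjusted p = 0.0296). Between the hairpins 2 assembly factors were higher with hairpin 3, NDUFAF6 (0.54) and C11orf83 (0.91, now UQCC3), and TTC19 was lower (-0.89). The shares of all genes there were 4.09% higher and 5.4% lower. None of the 48 was called with hairpin 1. In A-498 against 786-O, 12 of the 48 were lower and 5 higher, beside 21.4% lower and 25.7% higher over all genes, and their median log2 fold change was -0.28; the smallest p-values were those of COA3 (0.92), CMC2 (-0.88) and COA4 (-0.84).

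Among 9 regulators of respiratory chain genes, the 2 partners of GABP moved in opposite directions with hairpin 3. GABPA, the ETS subunit that binds DNA, had 27.1 CPM with hairpin 3, 43.6 CPM with hairpin 1 and 44.7 CPM with the control in A-498, and 34.0 CPM with hairpin 3, 48.7 CPM with hairpin 1 and 47.7 CPM with the control in 786-O, and its log2 fold change was -0.61 (SE 0.13, adjusted p = 0.0385). GABPB1, the subunit that carries the activation domain, had 41.3 CPM with hairpin 3, 24.6 CPM with hairpin 1 and 25.9 CPM with the control in A-498, and 60.6 CPM with hairpin 3, 27.2 CPM with hairpin 1 and 28.7 CPM with the control in 786-O, and its log2 fold change was 0.88 (SE 0.15, adjusted p = 0.0247). For each gene the hairpin 3 libraries lay outside the range of the other 4. Both also differed from hairpin 1, by -0.60 (adjusted p = 0.0346) for GABPA and 0.96 (adjusted p = 0.0176) for GABPB1. NRF1 was not called (0.27 with hairpin 3, adjusted p = 0.302). In A-498 against 786-O the coactivator PPARGC1A was lower (-2.47, SE 0.66, adjusted p = 0.0211) and its relative PPARGC1B higher (1.39, SE 0.21, adjusted p = 0.00230). PPARGC1A had 0.756, 0.637 and 1.08 CPM with hairpin 3, hairpin 1 and the control in A-498, against 1.04, 7.19 and 5.35 CPM with the same constructs in 786-O.

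Of 15 tissue isoforms and other subunits, 10 are in the table and 9 passed the filter, and none was called with either hairpin against the control. CYCS, the cytochrome c that carries electrons from complex III to complex IV, had 268, 289 and 232 CPM with hairpin 3, hairpin 1 and the control in A-498, against 307, 289 and 255 CPM with the same constructs in 786-O, with log2 fold changes of 0.24 with hairpin 3 and 0.25 with hairpin 1 (adjusted p = 0.284 and 0.555). NDUFA4L2, a relative of NDUFA4 that hypoxia-inducible factors are known to induce in this tumour, was low, with 14, 6 and 11 counts with hairpin 3, hairpin 1 and the control in A-498 and 87, 15 and 31 counts with the same constructs in 786-O. It was called between the hairpins (2.06, SE 0.49, adjusted p = 0.0464), and lower in A-498 than in 786-O (-2.34, SE 0.72, adjusted p = 0.0345). C14orf2, a small ATP synthase subunit, was 0.66 higher on the log2 scale with hairpin 3 than with hairpin 1 (adjusted p = 0.0335), with 43.1, 25.4 and 43.6 CPM with hairpin 3, hairpin 1 and the control in A-498, against 41.4, 28.1 and 38.1 CPM with the same constructs in 786-O. In A-498 against 786-O the ATP synthase inhibitor ATPIF1 (-1.04, adjusted p = 0.00188) and the ATP synthase subunit USMG5 (-0.56, adjusted p = 0.0263) were lower, and COX6B2, the testis form of COX6B, was higher (3.62) at no more than 0.936 CPM. COX4I2 was not analysed here.

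None of the 13 protein genes of mitochondrial DNA was called in any hairpin comparison. In A-498 against 786-O, 1 was higher, MT-CO1, the catalytic subunit of complex IV (0.76, adjusted p = 0.00333), and none was lower. Over all genes tested 25.7% were called higher and 21.4% lower. The median log2 fold change of the 13 genes was 0.27, with 11 of 13 above 0. Genes of mitochondrial DNA took 7.37% of the counts with hairpin 3, 7.02% with hairpin 1 and 8.21% with the control in A-498, and 5.13, 5.41 and 5.45% with the same constructs in 786-O. Fibroblast markers summed to 18.6 to 40.8 CPM in A-498, against 5.51 to 7.12 CPM in 786-O, and muscle markers to 1.01 to 2.98 CPM in A-498 against 0.11 to 0.20 CPM in 786-O. Of the fibroblast markers COL1A1 was called higher in A-498 and LUM, at no more than 0.02 CPM in A-498 against 3.90 to 4.20 CPM in 786-O, was called lower. The part of these markers in the line difference was not tested.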

How the data were processed

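RNA was measured in 6 libraries of 2 cell lines, 1 per line and construct, made with a stranded total RNA kit per the labels' protocols. The authors deposited whole-number read counts per gene symbol without normalization; STAR, DESeq2, hg19 and hs37d5 are named in the submitters' processing notes without versions or roles, and the counter, annotation and strand setting are not stated in the sources used. Per the file headers, the authors also deposited DESeq2 output, made of a mean signal over the libraries, the log2 fold change and its error, the Wald score, and the p-value before and after adjustment. The design behind that table is not stated, its log2 fold change runs control over knockdown as read from the sign of ZNF395, and its mean signal and score were not used.

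The count test was that of edgeR 4.0.16, run in R 4.3.3 (TMM scaling, filterByExpr over knockdown status, quasi-likelihood F tests, Benjamini-Hochberg adjustment over 20144 genes). Hairpin comparisons used line and construct as terms (2 degrees of freedom left), pooled knockdown and the line difference from line and knockdown status (3), and the difference between lines in the knockdown effect from 4 means (2). The F statistic gave the standard errors. Log2 ratios of single libraries used a prior count of 2. At 77534125 counts or more per library, depth limited only the lowest members. Alternatives were DESeq2 1.42.0, limma-voom (limma 3.58.1), other scalings, no filter and each library left out. Labels give no batch, so none could be examined.

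Transcript lengths and overlaps came from GENCODE v29 on GRCh38, another build than that of the counts, so per-length levels and neighbours are orientation only and no coordinates of the builds are mixed. The members, lists, tests and the rule for named genes were chosen with earlier results of these data known. That rule names, per comparison, the called members in order of p (at most 12, or the 5 smallest p), a fixed set (complex II, the c subunits, COX7A2, COX7A2L, NDUFA4 and CYC1), the most and least abundant of each complex, the 6 most even members over the 4 ratios, and called genes of the other lists. The other members named were chosen after their values were seen. The hairpin number in the labels is shared between lines but not by the controls.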

Additional observations from a re-analysis of the deposited data

Results flagged for a closer look

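For 10 members both knockdown libraries of A-498 moved one way from their control and both of 786-O the other way. The knockdown effect in A-498 minus that in 786-O, on the log2 scale, was 0.0455 for ATP5D, -0.111 for ATP5J, -0.0935 for ATP5L, -0.156 for COX6C, 0.0400 for CYC1, -0.191 for NDUFA4, -0.311 for NDUFS5, -0.191 for NDUFV3, 0.194 for UQCRC1 and -0.221 for UQCRH. The difference was tested with edgeR's quasi-likelihood test, none passed, and the adjusted p of each was 0.999976. In A-498 the ratios of NDUFS5 were -0.29 with hairpin 3 and -0.24 with hairpin 1, and in 786-O they were 0.06 and 0.03 with the same constructs. UQCRC1, a core subunit of complex III, lay at 0.10 and 0.11 in A-498 and at -0.08 and -0.10 in 786-O with the same constructs. The ratios of each line share their control library.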

How the results depend on the processing

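Named members gave 493 values under the alternatives, for 44 results: 440 kept their direction and side of the threshold, 49 lost their call and kept direction, 4 gained a call (SDHA with hairpin 1) and 0 reversed. Hairpin 1 called 1 member without the filter and 1 with DESeq2. Over all genes it then called 255 higher and 223 lower of 32357 without the filter, and 219 higher and 247 lower of 20144 with DESeq2. With 1 library left out, hairpin 3 called 0 to 8 members (median log2 fold change -0.0783 to -0.0329), hairpin 3 against hairpin 1 called 0 to 7 (median -0.0686 to 0.0199), and A-498 against 786-O called 9 to 27 (median -0.373 to -0.321). The line median was -0.245 with library totals and -0.363 without the filter, and 53 members were called with line and construct in the model. Over all 20144 genes that model called 6471 higher and 5989 lower. The median difference between lines in the knockdown effect was 0.0414 with library totals and -0.0700 to 0.0705 with 1 library left out. It could not be estimated without a control. With the hairpin number as a replicate block, pooled knockdown called 0 members (median -0.0324), as without it. Over all genes that block model called 9 higher and 17 lower. Reading NDUFA4 with complex IV left that complex with 1 member higher and 1 lower under hairpin 3. The cause of these changes was not tested.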
